A study of Mus musculus with 12 samples.

Results

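The cubilin complex is the endocytic receptor through which the intestine takes up vitamin B12, or cobalamin. The genes described here were the receptor subunits Cubn and Amn, their partners Lrp2 and Dab2, the cobalamin carrier gene Tcn2, and the vitamin transporter genes Slc46a1, Slc19a3, Slc5a6 and Slc23a1. They were chosen by name, with results of the diet comparison known. Each was read from the brightest probe set that names 1 gene, by its mean over 12 arrays. Of the 9 genes, 8 were measured, out of 19937 genes in all, and Slc19a3 was not analysed here. Because the choice rested on the difference between the diets, that difference is given for these genes as a description, without a test of its own.

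The arrays measured total RNA from the small intestine of male wildtype FVB mice labelled with an age of 8 weeks. The diets lasted 8 weeks. A high-fat control diet was fed to 6 mice, and the other 6 ate the low P/S diet, which had a low ratio of polyunsaturated (P) to saturated (S) fatty acids. The series title ties the study to cholesterol excretion through the intestinal wall. All mice carried the same strain background, and no other allele or agent is named. The labels do not give the segment of the intestine, the time of day or the last feeding. Values are intensities on the linear scale of the deposited table. Each difference is the mean log2 value of the low P/S arrays minus that of the control arrays, with limma's standard error after ±, and a call, made here only for genes outside the chosen set, is an adjusted p under 0.05 over all genes tested.

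In the gut, dietary cobalamin bound to intrinsic factor is caught at the apical membrane of enterocytes by cubilin. Cubilin is a large peripheral protein with no membrane anchor of its own. It is held in the membrane and carried to the surface by amnionless, the product of Amn. The giant receptor megalin (Lrp2) binds many of the same ligands in the kidney, and the adaptor Dab2 links such receptors to clathrin. Inside the cell cobalamin is released and passed to transcobalamin (Tcn2), the carrier that delivers it to tissues. Slc46a1 encodes the proton-coupled folate transporter, Slc5a6 the sodium-dependent transporter of biotin and pantothenate, and Slc23a1 a sodium-dependent transporter of ascorbate, which is not a B vitamin.

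The sequences before the transcription starts of Cubn, Amn and Slc46a1 are shown because Cubn and Amn encode the 2 subunits of the receptor, and Slc46a1 is the folate transporter whose difference was near that of Amn with a wider spread. Each is the 250 bases before the start, 5′ to 3′ on the gene's strand, from RefSeq on GRCm38.p6, the C57BL/6J reference and not the FVB strain. Of the 9 genes, 7 had a window in the table that could be used here. Capitals mark matches on either strand to any of 8 motifs: the nuclear receptor core AGGTCA, the CDX motif TTTATNG, the HNF1 core GTTAAT, the GATA motif AGATAA, the E-box CACGTG, the GC box GGGCGG, the CCAAT box CCAAT and the TATA box TATAAA. The last 4 motifs were added after the sequences had been seen.
Cubn: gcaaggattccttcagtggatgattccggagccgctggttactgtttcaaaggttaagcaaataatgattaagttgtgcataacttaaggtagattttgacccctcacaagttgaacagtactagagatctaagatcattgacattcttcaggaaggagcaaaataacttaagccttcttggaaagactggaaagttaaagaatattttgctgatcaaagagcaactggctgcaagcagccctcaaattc
Amn: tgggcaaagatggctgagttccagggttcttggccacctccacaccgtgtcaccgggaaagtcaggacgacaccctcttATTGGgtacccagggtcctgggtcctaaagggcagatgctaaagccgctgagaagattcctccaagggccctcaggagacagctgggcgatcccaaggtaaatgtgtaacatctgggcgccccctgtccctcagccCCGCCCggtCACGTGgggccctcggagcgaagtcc
Slc46a1: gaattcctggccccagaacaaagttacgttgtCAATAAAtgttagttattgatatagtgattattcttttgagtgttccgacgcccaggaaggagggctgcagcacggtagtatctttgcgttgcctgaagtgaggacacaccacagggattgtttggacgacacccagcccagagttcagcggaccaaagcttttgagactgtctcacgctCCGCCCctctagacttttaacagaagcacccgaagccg

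The Cubn window (chr2:13491877-13492126, minus strand) held no match to the 8 motifs, 2 CpG pairs and 39.6% G and C bases, against a median of 52.4% over 32851 windows. The Amn window (chr12:111270846-111271095, plus strand) held an E-box starting 26 bases before the start, a GC box at 35 and a CCAAT box at 171, with 61.2% G and C bases and 11 CpG pairs. An E-box occurred in 6.02% of all windows, a GC box in 32.7% and a CCAAT box in 33.8%. The Slc46a1 window (chr11:78465451-78465700, plus strand) held a CDX match, which 9.81% of windows had, and a GC box. Among all windows 14% had the nuclear receptor core, 6.43% the HNF1 core, 9.99% the GATA motif and 12.4% the TATA box. The 2 subunit genes thus shared no match in these windows, and a match describes the letters only.

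**Figure D1:**
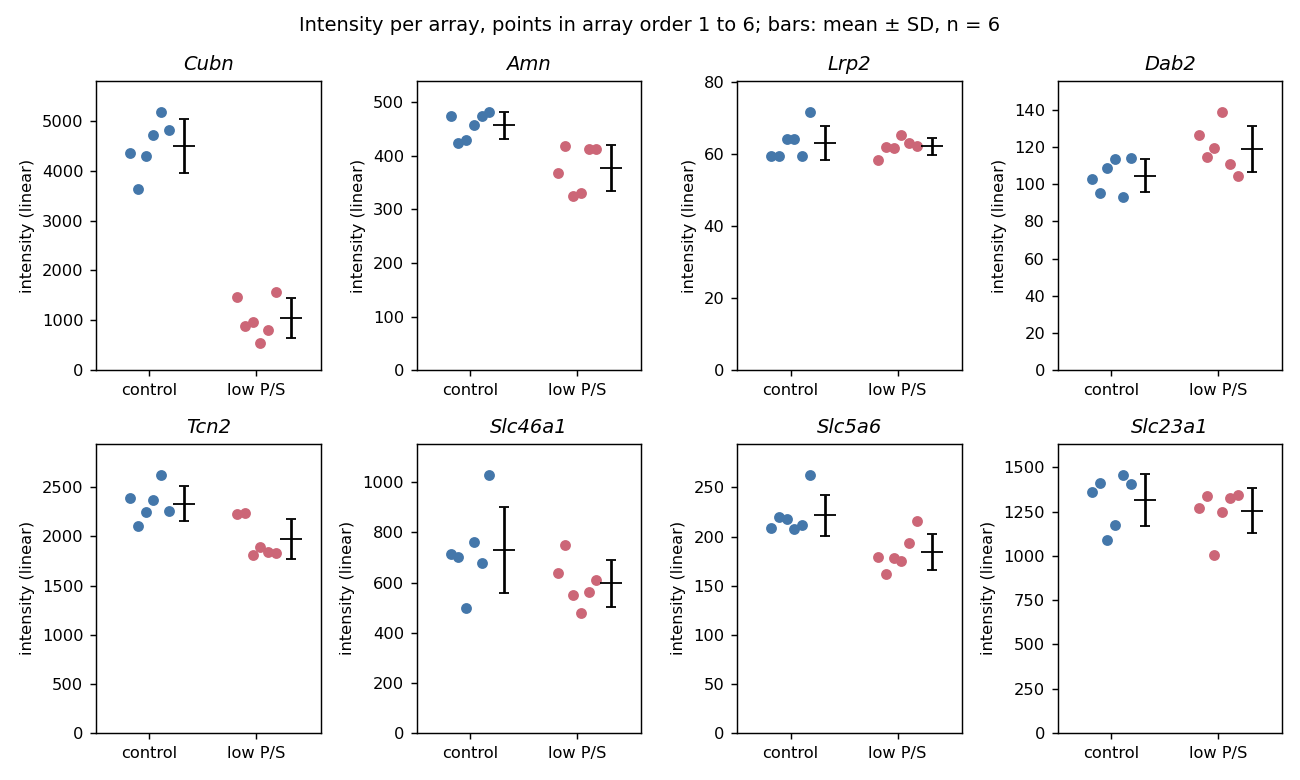
Linear intensity of the 8 measured genes in each array, with control arrays in blue and low P/S arrays in red, in array order 1 to 6 within each diet. Black bars are the mean ± SD over 6 arrays. The diets do not overlap for Cubn (lowest control 3630, highest low P/S 1570) or Amn (423 and 417), and they overlap for the other 6 genes.

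Cubn had the largest difference among these genes. On the control diet its intensity (probe set 10480155) ranged from 3630 to 5177 with a median of 4535. On the low P/S diet it ranged from 547 to 1570 with a median of 931. Every low P/S array lay below every control array, with the highest low P/S values in arrays 1 and 6 and the lowest in array 4. The geometric mean was 4469 in control and 979 in low P/S animals, a difference of -2.19 ± 0.19 or 4.56-fold. Among 11962 genes tested, this was the third most negative difference. In bulk tissue, fewer cells expressing a gene and less of its RNA per cell cannot be told apart.

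On a ratio or log2 scale, the animals on the low P/S diet also differed from each other in Cubn more than the control animals did. In linear units the control arrays spanned the wider range, from 3630 to 5177 against 547 to 1570. The highest low P/S array was 2.87 times the lowest, against 1.43 times on the control diet. The SD of the log2 values was 0.57 on the low P/S diet, at the 99.7th percentile of the genes tested, and 0.18 on the control diet, at the 89.5th percentile. The difference between these spreads was not tested.

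Amn, the anchoring subunit, was lower as well but by far less. Its control arrays (probe set 10398635) ran from 423 to 482 with a median of 466, and its low P/S arrays from 324 to 417 with a median of 390. All 6 low P/S arrays lay below all 6 control arrays, although the gap between the groups was narrow. The difference was -0.28 ± 0.07, or 1.22-fold. The receptor's subunits therefore both had less transcript on the low P/S diet, with differences of unequal size on their own probe sets.

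The partners of the complex were dim on these arrays. Lrp2, which encodes megalin, gave intensities between 58.5 and 71.7 over the 12 arrays. Its mean level lay at the 22.7th percentile of all genes, below the limit of 85.6 for a gene to be tested, so this probe set is near the intensity floor. The difference was -0.02 ± 0.05, and it turned to 0.03 with quantile normalization and to 0.02 without control array 6.

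Dab2, the clathrin adaptor, had control intensities from 93.0 to 114 with a median of 106. Its low P/S intensities ran from 104 to 139 with a median of 117. The groups overlapped, with 2 low P/S arrays inside the control range, and the difference was 0.18 ± 0.07. The level lay at the 51st percentile, not far above the limit for testing. A second, dimmer probe set for Dab2 read between 40.3 and 46.6 on all arrays, and averaging both gave a difference of 0.08. That probe set lay below the limit of 85.6, where a difference could be missed, so it does not test the first.

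Tcn2, the carrier downstream of the receptor, was lower on the low P/S diet. Its control arrays (probe set 10383799) ranged from 2103 to 2629 with a median of 2315, and the low P/S arrays from 1811 to 2242 with a median of 1867. The groups overlapped, since low P/S arrays 1 and 2 lay inside the control range while the other 4 lay below it. The difference was -0.24 ± 0.07, or 1.18-fold.

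Among the vitamin transporters, Slc46a1, for folate, ran from 499 to 1030 on the control diet with a median of 708, and from 477 to 749 on the low P/S diet with a median of 584. The groups overlapped widely, control array 6 was the highest and control array 3 the lowest of its diet, and the difference was -0.27 ± 0.13. Its control SD of 0.34 on the log2 scale stood at the 99.2th percentile of the genes tested. Without control array 3 the difference was -0.38, and without control array 6 it was -0.17.

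Slc5a6, for biotin and pantothenate, had control intensities from 207 to 263 with a median of 215. Its low P/S intensities ran from 162 to 216 with a median of 179. In 5 of 6 low P/S arrays it lay below every control array, and the sixth array overlapped. The difference was -0.27 ± 0.07, or 1.20-fold.

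Slc23a1, for ascorbate, ranged from 1090 to 1459 on the control diet (median 1384) and from 1005 to 1345 on the low P/S diet (median 1299). The ranges overlapped widely, and the difference was -0.07 ± 0.08. Without low P/S array 3, the lowest of all, the difference was -0.0046.

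The diets did not overlap for 2 of the 7 genes bright enough to be tested, Cubn and Amn, against 3.9% of all genes in that direction and 6.86% in the other. The median difference of the 7 genes was -0.27, beside 0.02 over all genes. Nothing is read from these values against all genes, because the choice of the set used the same comparison.

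**Figure D2:**
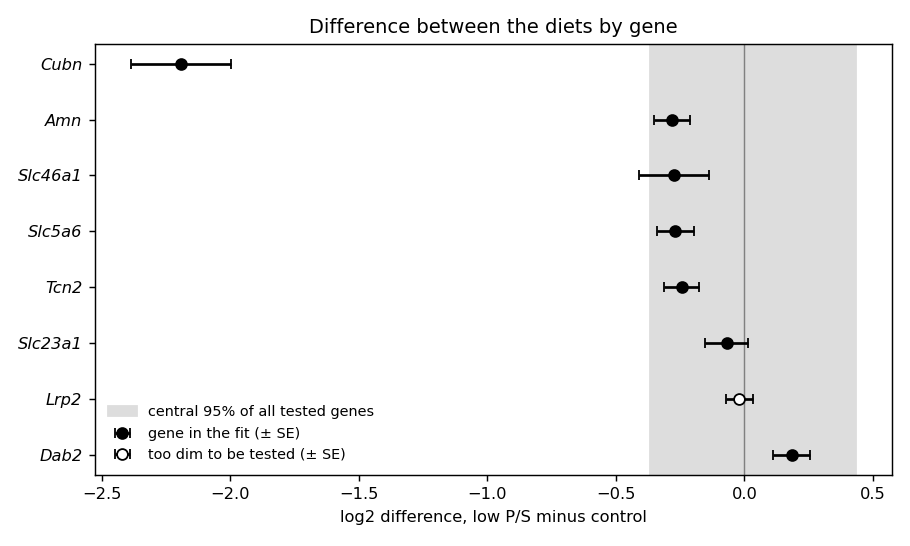
Log2 difference between the diets for each measured gene, low P/S minus control, with the standard error from limma; the open point is Lrp2, which was too dim to be tested. The grey band spans the central 95% of the differences of all tested genes (-0.37 to 0.44), and only the point for Cubn lies outside it.

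Whether the genes vary together between animals can be examined within each diet, where the difference between diets plays no part. Cubn was compared with each of the other 7 measured genes over the 6 arrays of each diet, which gave 14 pairs. In the control animals Cubn and Amn had r = 0.80 and rho = 0.89 (exact permutation p = 0.0417 and p = 0.0333, n = 6). Without the 2 arrays farthest from the Cubn median, r was 0.60. In the low P/S animals the same pair had r = 0.38 and rho = -0.03 (exact permutation p = 0.447 and p = 1, n = 6), and r was -0.36 without 2 arrays. No pair passed after Benjamini-Hochberg adjustment over the 14 pairs (smallest exact permutation p adjusted = 0.408), and 1 had an unadjusted exact p under 0.05.

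Over the control animals Cubn and Tcn2 had r = 0.84 and rho = 0.77 (exact permutation p = 0.0583 and p = 0.103, n = 6), and r was -0.03 without 2 arrays. Leaving out the arrays farthest from the Cubn median narrows the range of Cubn, so r values without 2 arrays are unstable. The same step moved r for Dab2 in the low P/S animals from -0.56 to 0.95. Over the low P/S animals that pair had r = 0.21 and rho = -0.26 (exact permutation p = 0.717 and p = 0.658, n = 6). The other 5 genes, Lrp2, Dab2, Slc46a1, Slc5a6 and Slc23a1, had r between -0.77 and 0.53 with Cubn, with exact permutation p between 0.0889 and 0.828. With 6 arrays a diet, weak relations were not detectable.

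Genes outside the chosen set were ranked by how closely they tracked Cubn between animals. After subtraction of each diet's mean, the 5 named genes with the highest correlation with Cubn among 11549 were Lct (r = 0.91), Foxk1 (0.90), Llgl1 (0.90), Sectm1b (0.89) and Kctd21 (0.88). By the same measure Amn had r = 0.43, which would rank 1015th among those 11549 genes. These r values are over 12 arrays, were picked as the highest of many, and describe these arrays only. Lct, which encodes the brush border lactase, had r = 0.96 within the control and r = 0.94 within the low P/S animals. Its intensity ran from 4029 to 5736 on the control diet and from 1806 to 3217 on the low P/S diet. The array with the lowest Cubn in each diet, control array 2 and low P/S array 4, was also the lowest for Lct. Foxk1, a forkhead factor gene, had r = 0.42 within control animals and a difference of only 0.02 ± 0.05 between the diets. Llgl1 and Kctd21 were dim, with geometric means of 107 and 117 in control and 102 and 109 in low P/S animals.

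Over the 12 arrays without that subtraction, the closest genes were Sectm1b (r = 0.99), the peptidase gene Ace (0.99), the neutral ceramidase gene Asah2 (0.98), Lct (0.98) and the aminopeptidase gene Xpnpep2 (0.98). These r values rest mostly on the difference between the diets that all of them share with Cubn. Sectm1b went from a geometric mean of 2272 to 882, a difference of -1.36 ± 0.14. Ace went from 4756 to 2234 (-1.09 ± 0.11). Asah2 went from 4342 to 2415 (-0.85 ± 0.08), and Xpnpep2 from 2259 to 1176 (-0.94 ± 0.08). Cubn had a larger difference than any of these.

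**Figure D3:**
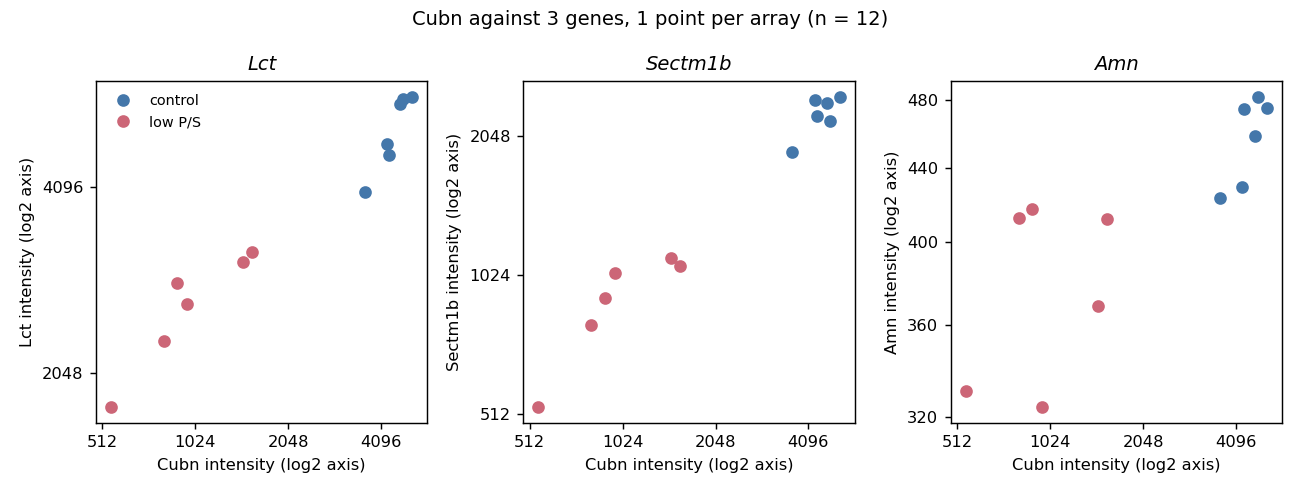
Intensity of Lct, Sectm1b and Amn against Cubn, 1 point per array on log2 axes, with control arrays in blue and low P/S arrays in red. Within each diet Lct follows Cubn (r = 0.96 and 0.94), while Amn does so less (r = 0.80 and 0.38). Lct and Sectm1b were picked for their high correlation with Cubn and Amn was not, so higher values for them follow from the choice.

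In a list of genes around cobalamin after its uptake, those that passed were higher on the low P/S diet. Of 12 tested genes for cobalamin carriers and for handling inside the cell, 4 rose on the low P/S diet and 8 did not pass (33.3% called; median difference 0.07). Of all genes tested 25.7% were called, 17.8% as higher and 7.87% as lower. Mmab, which makes the adenosyl form of the cofactor, rose 1.30-fold (0.37 ± 0.06, limma adjusted p = 0.000756), with no overlap between the diets. Mmachc, which processes incoming cobalamin, rose 1.15-fold (0.21 ± 0.05, limma adjusted p = 0.0113). The other 2, Mmadhc and Mcee, had calls that ended in 13 and 8 of the 20 alternatives (highest adjusted p = 0.126 and 0.0877). Mcee, counted in this list, encodes an enzyme next to a cobalamin-dependent one and does not itself handle cobalamin. The count was 2 with quantile normalization, and also 2 when any single array among control 2, 3, 5 and 6 and low P/S 4 and 5 was left out. The intrinsic factor gene Cblif was too dim to be tested (65.6 in control and 64.2 in low P/S animals), and the transcobalamin receptor gene Cd320 differed by -0.003 ± 0.05.

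Of 13 tested genes of folate uptake and folate-dependent enzymes, 6 rose, 1 fell and 6 did not pass (53.8% called; median difference 0.17). Fpgs, which adds glutamates that hold folate in the cell, rose 1.20-fold (0.26 ± 0.07, limma adjusted p = 0.0130), and Mthfd1, a folate interconversion enzyme gene, rose 1.20-fold (0.26 ± 0.08, limma adjusted p = 0.0194). Aldh1l1, which oxidizes formyl-folate, fell 1.30-fold (-0.38 ± 0.08, limma adjusted p = 0.00377). The reduced folate carrier gene Slc19a1 differed by 0.16 ± 0.12 and did not pass. Folr1, Folr2 and Folh1 were too dim to be tested. Without control array 6 the list had 3 higher and 1 lower.

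Of 5 tested thiamine and riboflavin genes 1 rose, 1 fell and 3 did not pass, and both calls were riboflavin genes. The riboflavin transporter gene Slc52a3 rose 1.16-fold (0.22 ± 0.06, limma adjusted p = 0.0104) while Rfk, which makes the first flavin cofactor from riboflavin, fell 1.24-fold (-0.32 ± 0.07, limma adjusted p = 0.00373). The thiamine transporter gene Slc19a2 differed by -0.16 ± 0.07 and did not pass, but passed with quantile normalization and without control array 3 (smallest adjusted p = 0.0304).

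Downstream of the vitamins that Slc5a6 carries, 4 of 10 biotin and pantothenate genes rose and 6 did not pass (median difference 0.15). Pank1, a kinase that commits pantothenate to coenzyme A, rose 1.56-fold (0.64 ± 0.09, limma adjusted p = 0.000152), from 204.5 to 318.8, with no overlap between the diets. The other 3 calls (Btd, Pank2 and Ppcdc) each ended in at least 3 alternatives. The count was 2 with quantile normalization, with median centring and when any single array among control 3 and 5 and low P/S 1 and 5 was left out, and it was 1 without control array 4 or 6.

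Among 5 tested ascorbate genes 2 rose, 1 fell and 2 did not pass. Slc23a2, the close relative of Slc23a1 that supplies ascorbate to most cells, rose 1.48-fold (0.56 ± 0.11, limma adjusted p = 0.00171), from 1089 to 1607 with no overlap between the diets. Glrx, a glutaredoxin gene, fell 1.34-fold (-0.42 ± 0.06, limma adjusted p = 0.000134), and Txnrd1 rose 1.20-fold (limma adjusted p = 0.0442) with a call that ended in 9 alternatives (highest adjusted p = 0.101). Of 12 vitamin B6 and niacin genes 1 rose, 1 fell and 10 did not pass. The NAD kinase gene Nadk rose 1.28-fold (0.35 ± 0.07, limma adjusted p = 0.00258), and Slc22a13, an organic anion transporter gene, fell 1.24-fold (-0.31 ± 0.07, limma adjusted p = 0.00577). Over the 6 vitamin lists 18 of 57 tested genes rose, 4 fell and 35 did not pass (38.6% called; median difference 0.08), and of all calls in the data 69.4% were rises. The vitamin count was 12 higher and 6 lower with quantile normalization. It was 9 higher without control array 6 and 11 higher without control array 3 or low P/S array 5.

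**Figure D4:**
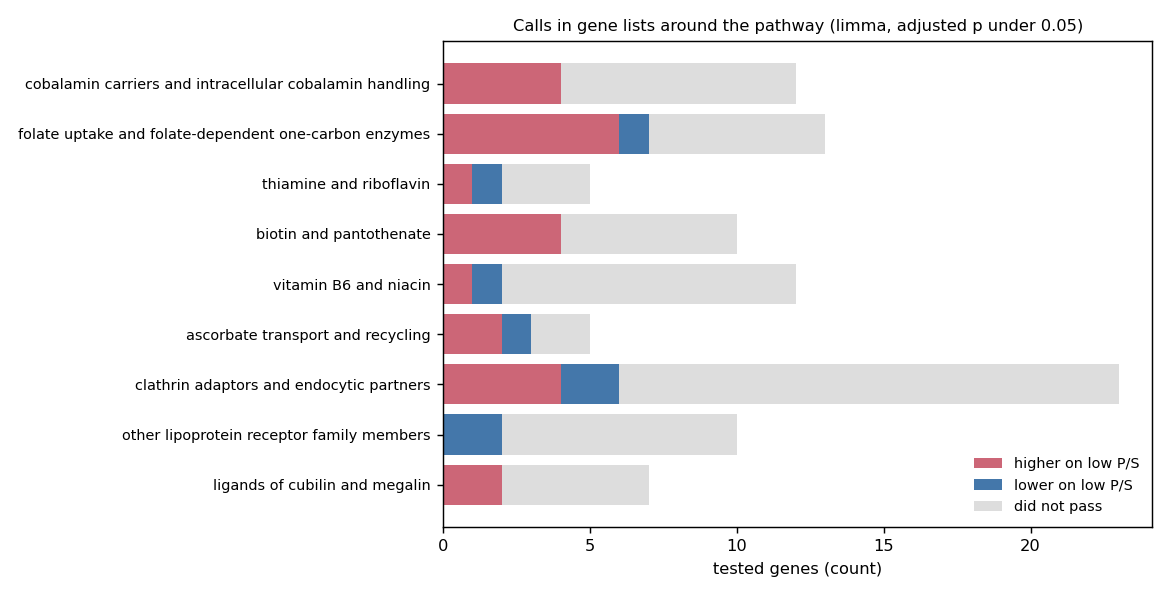
Number of tested genes per list that passed as higher (red), passed as lower (blue) or did not pass (grey) in limma at an adjusted p under 0.05. Rises outnumber falls in the cobalamin, folate, biotin and pantothenate, ascorbate, clathrin and ligand lists. They also do so over all genes, where 69.4% of calls were rises. The lipoprotein receptor list has 2 falls and no rise.

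Of 23 tested clathrin adaptors and endocytic partners 4 rose, 2 fell and 17 did not pass (26.1% called, near the 25.7% of all genes). The count higher was 2 with median centring and without any single array among control 3, 5 and 6 and low P/S 1 and 2, and it was 6 without low P/S array 3. Dab1, a relative of Dab2, rose 1.98-fold (0.99 ± 0.17, limma adjusted p = 0.000739), from 454 to 899 with no overlap between the diets. Clcn5, an endosomal chloride and proton exchanger needed for uptake through cubilin and megalin in the kidney, fell 1.38-fold (-0.47 ± 0.07, limma adjusted p = 0.000343), also with no overlap. The recycling gene Ehd1 fell 1.17-fold (limma adjusted p = 0.0147), and Snx17, which sorts receptors in endosomes, rose 1.19-fold (limma adjusted p = 0.0130). The other 2 rises were the clathrin light chain gene Cltb (1.11-fold, limma adjusted p = 0.0422) and the endosomal gene Rab4a (1.17-fold, limma adjusted p = 0.0331). The other clathrin genes, Clta and Cltc, and the 5 adaptor subunit genes Ap2a1, Ap2a2, Ap2b1, Ap2m1 and Ap2s1 had differences between -0.01 and 0.10 and did not pass.

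Of 10 other tested genes of the lipoprotein receptor family, to which megalin belongs, 2 fell and 8 did not pass. Lrp12 fell 1.28-fold (-0.36 ± 0.06, limma adjusted p = 0.000344) and Lrp1 fell 1.25-fold (-0.32 ± 0.09, limma adjusted p = 0.0190). Of 7 tested genes for proteins that cubilin or megalin can bind, 2 rose and 5 did not pass. Trf, the gene of the iron carrier transferrin, rose 7.16-fold from 312 to 2233 (2.84 ± 0.19, limma adjusted p = 2.43e-07), and Apoe rose 1.35-fold (limma adjusted p = 0.00691). Apoa1, of high-density lipoprotein, differed by -0.20 ± 0.08, did not pass, and passed as lower with quantile normalization (adjusted p = 0.00166). Apob, the structural protein gene of chylomicrons, differed by -0.17 ± 0.06 and did not pass, and it passed as lower with quantile normalization and without low P/S array 1 or 2 (smallest adjusted p = 0.0127).

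Cubilin is known as a receptor of the distal small intestine, so segment markers are given beside it. Of 8 tested distal markers 4 rose and 4 did not pass, and the summed level of the 10 measured was 2896 to 4375 in control and 4147 to 5649 in low P/S animals. Most of the higher sum came from Slc9a3 (geometric mean 1021 in control and 1754 in low P/S animals) and Slc51b (468.3 and 899.5). The sodium exchanger gene Slc9a3 rose 1.72-fold (0.78 ± 0.11, limma adjusted p = 0.000115), the bile acid exporter gene Slc51b 1.92-fold (limma adjusted p = 0.000772) and the bile acid uptake gene Slc10a2 by 0.58 ± 0.15 (limma adjusted p = 0.0114). Slc10a2 was dim, at 77.6 to 128 in control and 115 to 227 in low P/S animals, and the diets overlapped. The fourth, Pyy, had a call that ended when any single array among control 3 to 6 and low P/S 1, 2 and 4 was left out (highest adjusted p = 0.0845). The 4 that did not pass were Slc51a (0.11 ± 0.06), Gcg (0.25 ± 0.18), Nts (0.10 ± 0.19) and Fgf15 (-0.10 ± 0.06), and Gcg passed as higher without control array 2. Fabp6, the bile acid binding protein gene that defines the ileum, was too dim to be tested, at 46.0 in control and 47.1 in low P/S animals, and Hoxb13 was too dim as well. Whether the segment sampled has a part in the Cubn difference was not tested.

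Of 10 tested proximal markers 4 rose (Cldn2, S100g, Sct and Slc40a1), 1 fell and 5 did not pass. The gene that fell was Lct, by 1.93-fold (-0.95 ± 0.13, limma adjusted p = 9.22e-05). The call of Slc40a1 ended when any single array among control 3, 4 and 5 and low P/S 1, 3 and 5 was left out (highest adjusted p = 0.0700). The 5 that did not pass, Gata4, Gata6, Onecut2, Cybrd1 and Gip, differed by -0.10 to 0.16, and Gip passed as higher without low P/S array 5. The summed level of the 11 measured was 7112 to 8962 in control and 5190 to 6692 in low P/S animals. Lct alone carried the lower sum, since without it the other 10 summed to 3065 to 3242 in control and 3245 to 3588 in low P/S animals.

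All 12 measured enterocyte markers were bright enough to be tested, as the tissue label implies, with 2 higher, 4 lower and 6 not passing. The 2 that rose were Fabp1 (0.21 ± 0.08, limma adjusted p = 0.0481) and Cdx2 (0.16 ± 0.05, limma adjusted p = 0.0228). The call of Cdx2 ended in 3 of the 20 alternatives (highest adjusted p = 0.191). The microvillus gene Vil1 fell 1.23-fold (limma adjusted p = 0.00269) and the disaccharidase gene Sis 1.29-fold (limma adjusted p = 0.00377). Krt20 (-0.23 ± 0.07, limma adjusted p = 0.0264) and Epcam (-0.17 ± 0.05, limma adjusted p = 0.0228) also fell. The call of Epcam ended with median centring. Alpi and Fabp2 differed by 0.01 and -0.01. The summed enterocyte level was 45453 to 59871 in control and 46763 to 50872 in low P/S animals. The count was 1 higher and 2 lower with median centring, and 3 lower without low P/S array 5. Their part in the differences of Cubn and Amn was not tested.

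Markers of other tissues and cells were read in the same way. Of 7 measured crypt and proliferation markers 6 were tested. Mki67 and Top2a rose, and the call of Top2a ended without array 4 of either diet (adjusted p up to 0.0512). Pcna (0.34 ± 0.13) did not pass, but it passed as higher in 8 alternatives. The crypt markers Lgr5, Olfm4 and Smoc2 did not pass, with differences of -0.14, -0.004 and 0.02. Lgr5 passed as lower without low P/S array 6. Limma called 0 of 6 smooth muscle markers (0 at an unadjusted p under 0.05), with a summed level of 6588 to 9738 in control and 5201 to 7813 in low P/S animals. It called 0 of 4 tested adipose markers (2 unadjusted), but 3 as lower without control array 1 and 1 without control array 2, with a summed level of 423 to 968 and 439 to 799. Of 5 tested leukocyte markers 2 rose, 1 fell and 2 did not pass (60% called). The macrophage genes Csf1r and Cd68 rose 1.45-fold and 1.22-fold (limma adjusted p = 0.000105 and 0.0038), Csf1r with no overlap, and the T cell gene Cd3e fell 1.20-fold (limma adjusted p = 0.0110). The summed leukocyte level was 830 to 952 in control and 894 to 1302 in low P/S animals, and its part in the differences above was not tested. Of the kidney tubule markers, included because cubilin and megalin are abundant there, 4 of 6 were too dim to be tested and limma called 0 of the other 2 (0 unadjusted). Of the exocrine pancreas markers 5 of 8 were too dim, and limma called 0 of the other 3 (1 unadjusted), with 1 lower without low P/S array 3.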

How the data were processed

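The 12 Affymetrix whole-transcript arrays were labelled from 500 ng of total RNA without removal of ribosomal RNA, per the labels' protocols. The deposited table gives a linear intensity for each probe set on each array; no source used here states the summary or normalization method. It held 34760 probe sets (21640 with 1 gene symbol, 1321 with several, 11799 with none), with array medians between 91.9 and 99.5. Precision is limited by the number of arrays.

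For each of 19937 genes the brightest probe set with 1 symbol was taken and its log2 value used. Genes under the 40th percentile of mean level (intensity 85.6) were left out before adjustment, leaving 11962. The diets were compared with limma 3.58.1 in R 4.3.3 (lmFit, eBayes, diet as the only term, two-sided, Benjamini-Hochberg). Correlations used exact two-sided permutation over 720 pairings (Python 3.11.15, NumPy 2.4.6, SciPy 1.17.1, pandas 2.3.3, matplotlib 3.10.9). The members and the 18 lists were chosen with earlier results of these data known. Other genes named were up to 4 of smallest p per list, the tested segment markers and the 5 genes most like Cubn by each correlation. Added for their role after their values were seen were Cd320, Cblif, Slc19a1, Folr1, Folr2, Folh1, Fabp6, Hoxb13, Alpi, Fabp2 and Rab4a. The clathrin and adaptor subunit genes, Fabp1, Krt20, Olfm4 and Smoc2 were also added after their values were seen. On simulated data with 11962 genes, the fit recovered 21 of 50 genes planted at a log2 difference of 0.25 and 47 of 50 at 0.5. It recovered all 50 at each of 1 and 2, and 6.15% of its calls were false. The simulation gave 179 calls against 3074 in the data. Its cutoff on the unadjusted p was therefore stricter, and its recovery may understate that in the data. The deviations of arrays with the same number in both diets had a correlation over 0.1 in 3 of 6 pairs and not in the other 3, so the numbers were not taken as pairs. Per the design text, the 6 samples of a diet are biological replicates.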

Additional observations from a re-analysis of the deposited data

Results flagged for a closer look

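In 2 of the 16 sets of 6 arrays examined (8 genes, 2 diets), 1 array stood apart from the others of its diet. Chance flags about 1 in 20 such sets. For Slc5a6, control array 6 read 263 while the next highest control array read 220, and this array was also the highest control array for Slc46a1, Lrp2, Dab2 and Amn. For Slc23a1, low P/S array 3 read 1005 while the next lowest read 1249. It was also the lowest low P/S array for Amn and Tcn2.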

How the results depend on the processing

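Of 20 alternatives, the fit without control arrays 1 and 2 was chosen after seeing the data. Over them the difference of Cubn ranged from -2.33 to -2.02, of Amn from -0.35 to -0.24, of Tcn2 from -0.28 to -0.21 and of Slc5a6 from -0.33 to -0.22. Leaving out each array gave 2409 to 3325 called genes (3074 with all arrays) and 39 to 55 called list genes (52 with all arrays). Quantile normalization called 3449 genes, of which 1853 (53.7%) were higher, against 69.4% without it, and it shifted the median difference of all genes from 0.02 to -0.01. With the number as a replicate block 3530 genes were called; 2 of 6 control arrays correlated best with their own number. Of the 79 list genes that the naming rule covers, printed or not, 53 kept their side of the threshold in all alternatives, 11 lost their call in some, 15 gained one in some and 0 changed direction as a called gene. With arrays, dim genes such as Lrp2 and Dab2 carry little signal over background, so a small change in them may be missed. Their standard errors (0.05 and 0.07) were near the median of 0.06 over all genes tested.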
